A study of Arabidopsis thaliana with 24 samples.

Results

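The 123 genes described here were at least 2-fold higher at 4 h than at 0 h in *Ch1* seedlings under high light (HL), while their levels at 4 h and 0 h of low light (LL) were nearly equal. They were chosen by the values themselves, from the 10349 genes counted at both light levels. The mean of log2(normalized count + 1) had to be at least 1 higher at HL 4 h than at HL 0 h, its difference between LL 4 h and LL 0 h had to lie between -0.4 and 0.4, and the highest HL group mean had to reach 20 normalized counts. Of the 6460 genes over that floor, 657 met the HL limit whatever they did in LL, and 288 of these were also at least 2-fold higher at LL 4 h. The differences between 4 h and 0 h are therefore a description of the choice, and tests are given only for the libraries of 1 h and 2 h, which the choice used only through the floor. For 3 of the 123 genes (AAE17, AT1G55680 and SBP1) the HL 4 h mean was under 20 and an earlier HL group passed the floor.

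*Ch1* is an Arabidopsis mutant (ecotype Col-0) that makes no chlorophyll b, and all libraries come from it, so no wild type stands beside these values. Whole seedlings, 2 weeks old, were raised in upright dishes on MS salts at 1/2 strength with 1% sucrose under long days, kept in water for at least 1 h, and moved to fresh water under HL (1000 µE) or LL (30 µE). RNA was taken at 0, 1, 2 and 4 h of HL and at 0, 1, 2 and 4 h of LL, with 3 replicates in each of the 8 groups, and was counted at its 3′ ends by the bulk MARS-seq protocol. Each light level has its own 0 h libraries and its own deposited table. The methods give 7 whole seedlings for a biological replicate in the RNA assays they describe, without saying so again for these libraries. The p-values rest on the spread among the 3 replicates of each group, pooled over all groups in a fit and not only the groups compared. Levels are given as CPM, counts per 1000000 counts of a library after TMM scaling of all 24 libraries together, and differences between groups on the log2 scale of edgeR's fit, each with its standard error (SE).

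Light above what the photosystems can use strains a leaf cell in several known ways. When Rubisco takes up oxygen instead of carbon dioxide, photorespiration recovers the carbon through glycolate oxidase, the aminotransferases of the peroxisome, and the glycine decarboxylase complex and serine hydroxymethyltransferase of the mitochondrion. The chloroplast NDH complex returns electrons to the plastoquinone pool around photosystem I, early light-induced proteins bind pigments released from damaged antennae, and cytosolic chaperones of the heat shock response refold proteins. Genes of each of these systems are among the 123.

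The libraries held 1163870 to 2070855 counts. Of the 123 genes, 121 carry a RefSeq locus tag and 67 a symbol, and the chromosomes 1 to 5 hold 33, 18, 28, 14 and 28 of them. The other 2, ATCG00920 and ATCG00940, are not annotated in the table used and are given by identifier only, while AT2G01010 is annotated as an 18S ribosomal RNA. The lowest summed count of a member over its 3 libraries was 54 at HL 4 h and 15 at HL 0 h. The 10 shoot markers were all counted, at summed levels of 51300 to 59868 CPM at HL 4 h, against 36551 to 43719 CPM at HL 0 h, 29824 to 32596 CPM at LL 4 h and 48537 to 49813 CPM at LL 0 h, and 2 of them, GOX1 and GAPA, are members. Of 12 root markers 10 were counted, at 135 to 178 CPM in sum at HL 4 h and 179 to 245 CPM at HL 0 h, against 161 to 221 CPM at LL 4 h and 168 to 270 CPM at LL 0 h. At 2 h the shoot markers summed to 29034 to 33446 CPM in HL, against 23514 to 27929 CPM in LL, a difference of the same direction as that of the photosynthesis members below. Its part in the results was not tested, and in whole seedlings fewer cells of a type and less RNA per cell cannot be told apart. The shoot markers are photosynthesis genes that also respond to light, so their sum is not a measure of tissue share alone.

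In some groups 1 library was the lowest in many members. HL 0 h replicate 2 was the lowest of its group by 2-fold or more in 27 of the 123 genes (22.0%), against 4.75% of the 6460 genes over the floor. LL 2 h replicate 2 was lowest by 2-fold or more in 20 members (16.3%), against 4.29% of the genes over the floor. The same held for LL 0 h replicate 3 in 11 members (8.94%, against 2.23%) and for HL 4 h replicate 2 in 6 (4.88%, against 1.18%). Without HL 0 h replicate 2 the rule finds 100 genes, of which 84 are among the 123. The 2 sets of libraries also differed before any treatment: at 0 h, edgeR called 36 of the 10349 genes higher and 428 lower in the HL set than in the LL set at the same limits as below. HL against LL at 1 h and at 2 h therefore compares sets that were not equal at the start, and light level and library set cannot be told apart in it.

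The differences that chose the members ran from 1.00 to 3.64 on the log2 scale between HL 4 h and HL 0 h, with a median of 1.27. They were 2 or more in 14 genes and under 1.5 in 83. In 107 of the 123 genes all HL 4 h libraries lay above all HL 0 h libraries. The rule used these same libraries, so that count follows largely from the choice. The share over all genes was not counted. Just inside the HL limit stood HSP101 (1.00), AT4G09670 (1.01) and PHT2;1 (1.01), and just outside it AT5G21020, DIN9 and ACBP6 (0.997, 0.996 and 0.996). At the upper LL limit AT3G08520, AT1G11860 and NIT4 were inside (0.396, 0.396 and 0.394) and AT4G06744, AT2G36970 and AtCDC48B outside (0.404, 0.408 and 0.420). At the lower LL limit LSU1, AT5G04830 and AT4G09670 were inside (-0.39, -0.38 and -0.35) and AT3G48070, AT1G72640 and AOR outside (-0.42, -0.42 and -0.43). The floor of 20 normalized counts passed AT2G47370, AT5G19850 and AT5G42310 (20.1, 21.4 and 21.6) and left out IREG3, AT5G55640 and HB17 (19.8, 19.5 and 19.5).

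**Figure D1:**
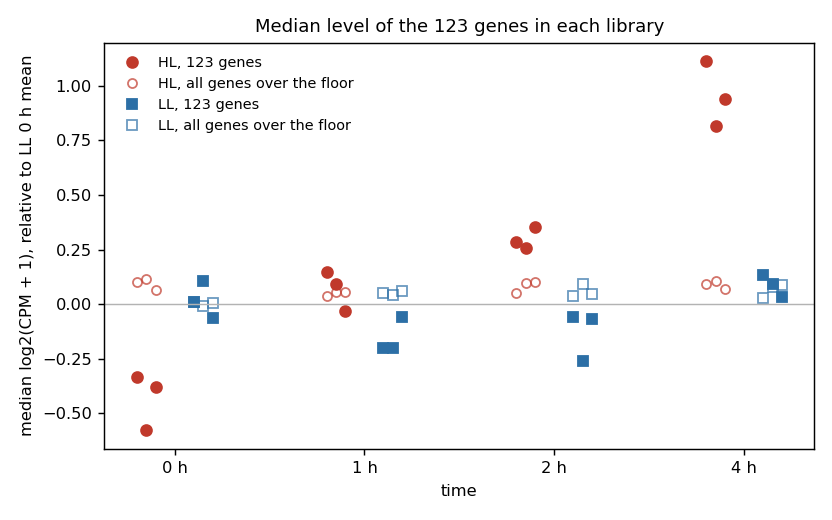
Median over genes of log2(CPM + 1) less the gene's own mean at LL 0 h, for each library at 0, 1, 2 and 4 h, with HL as circles and LL as squares. Filled points are the 123 genes and open points the 6460 genes over the floor. The members' medians lay at -0.58 to -0.33 in the HL 0 h libraries and at 0.82 to 1.11 in the HL 4 h libraries, and the LL libraries stayed between -0.26 and 0.13.

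The HL set started lower than the LL set in most members. Relative to each gene's mean at LL 0 h, the members' median log2(CPM + 1) was -0.33, -0.58 and -0.38 in the 3 HL 0 h libraries and 1.11, 0.82 and 0.94 in the 3 HL 4 h libraries. The plot of library medians shows the same libraries beside all genes over the floor, whose medians stayed between -0.01 and 0.11. At 0 h, 89 of the 123 genes were lower in HL than in LL (median -0.44, against 0.10 over the floor), and in 34 the difference was 1 or more. Of the 6460 genes over the floor, 2379 were lower in HL at 0 h, 298 of them by 1 or more. At 4 h, 103 members were higher in HL than in LL (median 0.83, against 0.00 over the floor), as were 3260 of the genes over the floor. By 1 or more, 52 members were above LL 4 h, against 246 of the genes over the floor. Of the members, 49 were above both LL 4 h and LL 0 h by 1 or more. In 76 members the HL 4 h libraries were all above every LL 4 h and LL 0 h library. The rule used all the groups compared here, so these counts follow in part from the choice. For the counts of 49 and 76, the share over all genes was not counted.

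The 34 genes that started at least 2-fold lower in HL than in LL are set apart here from the other 89. A gene that starts low in HL can meet the rule by reaching its LL level, so this split follows in part from the choice. At HL 4 h, 19 of the 34 were still below LL 4 h, against 1 of the other 89. HL 0 h replicate 2 was the lowest HL 0 h library in 29 of the 34, and LL 2 h replicate 2 the lowest LL 2 h library in 32. Without HL 0 h replicate 2, 12 of the 34 still met the rule. AT3G28900, annotated as a ribosomal protein of the L34e family, shows the pattern: it had 42.1, 30.8 and 63.1 CPM in the HL 4 h libraries and 31.7, 3.65 and 37.5 CPM in the HL 0 h libraries, against 147, 78.6 and 75.5 CPM at LL 4 h and 76.7, 93.2 and 79.7 CPM at LL 0 h. Its HL 4 h libraries were all below its LL 4 h libraries. CA2, a carbonic anhydrase, had 300.1, 183 and 286 CPM at HL 4 h and 62.2, 38.7 and 50.2 CPM at HL 0 h, against 240.3, 157 and 133 CPM at LL 4 h and 155, 196 and 91.7 CPM at LL 0 h, so that the HL 4 h and LL 4 h libraries overlapped.

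**Figure D2:**
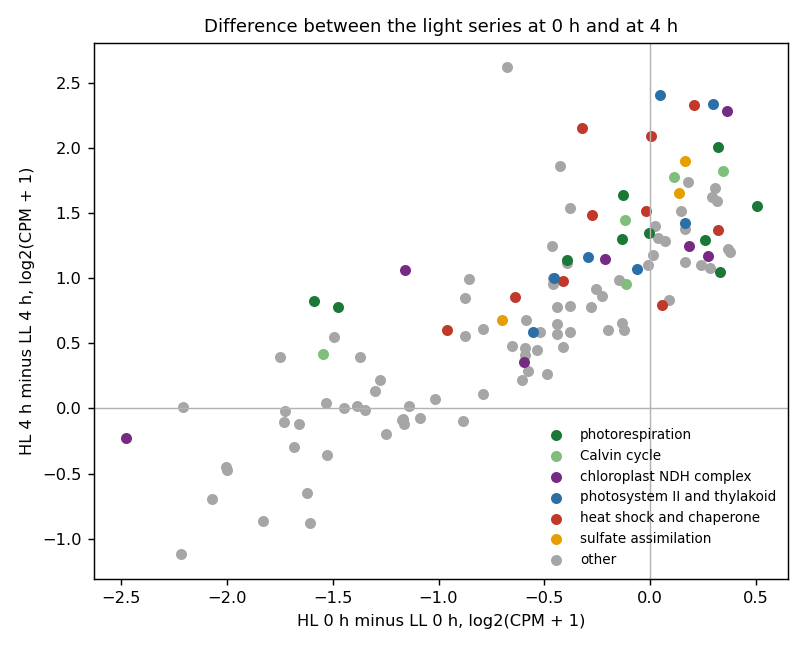
Each point is 1 of the 123 genes, with HL 0 h minus LL 0 h on the x axis and HL 4 h minus LL 4 h on the y axis, both as differences of group means of log2(CPM + 1). Points left of -1 are the 34 genes that started low in HL, and 19 of them lie below 0 on the y axis, against 1 of the other 89.

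At 2 h of light, 29 of the 123 genes were higher in HL than in LL and 1 was lower by edgeR's quasi-likelihood test (Benjamini-Hochberg adjusted p under 0.05 over all 10349 genes, and a change of at least 2-fold). That is 24% of the members called higher, against 1.68% of all genes tested, and 0.813% called lower, against 1.27%. Of the genes over the floor 2.4% were called higher and 1.13% lower. Among the 288 genes that were 2-fold higher at 4 h of both light levels, 10.4% were called higher at 2 h. The members' median log2 fold change at 2 h was 0.50 and 83 were above 0, where the median of all genes tested was 0.01. All HL 2 h libraries lay above all LL 2 h libraries in 61 members (49.6%, against 12.3% of all genes), and below them in 4 (3.25%, against 8.39%). They lay above in 38.2% of the 288 genes and in 15.2% of the genes over the floor, and below in 4.51% and 8.67%. The 29 genes called higher were all among the 89 that did not start 2-fold low in HL, and 26 of them still met the rule without HL 0 h replicate 2. The 1 gene called lower was AT3G28900, with 34.4, 21.4 and 24.6 CPM at HL 2 h, against 116, 31.2 and 109 CPM at LL 2 h, with overlapping libraries (log2 -1.68, SE 0.43, adjusted p = 0.0194). Its call was lost without replicate 2 of HL 2 h (-1.55), replicate 3 of HL 2 h (-1.62), replicate 1 of LL 2 h (-1.40) or replicate 3 of LL 2 h (-1.43), and by DESeq2 (-1.69). Of the 29 calls, 17 held whichever of the 6 libraries was left out. Without LL 2 h replicate 2, 32 members were called higher and 10 lower, and without each of the other 5 libraries 23 to 30 were called higher.

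Between 0 h and 4 h of HL the 123 genes took different courses. At 1 h, 42 had covered less than 25% of the difference that chose them and 46 more than 75%, of which 32 were already above their HL 4 h mean. At 2 h the same counts were 18 and 32. These shares are measured from the HL 0 h mean, which was low in the genes that started at least 2-fold lower in HL than in LL. Such genes are among the 46 over 75% at 1 h (CKL13, SBP1 and AAE17, for example) and also among the 42 under 25% (AT1G54010). How much of the early courses comes from a low HL 0 h mean was not tested. The means were higher at each later time in 44 genes, and the HL 4 h mean was the highest of the 4 in 91. In LL the medians at 1, 2 and 4 h lay at -0.21, -0.19 and 0.09 relative to LL 0 h, with 45 genes at 1 h and 45 at 2 h below 0 h by more than the 0.4 that the rule allows at 4 h. Above LL 0 h by more than 0.4 were 24 genes at 1 h and 22 at 2 h.

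**Figure D3:**
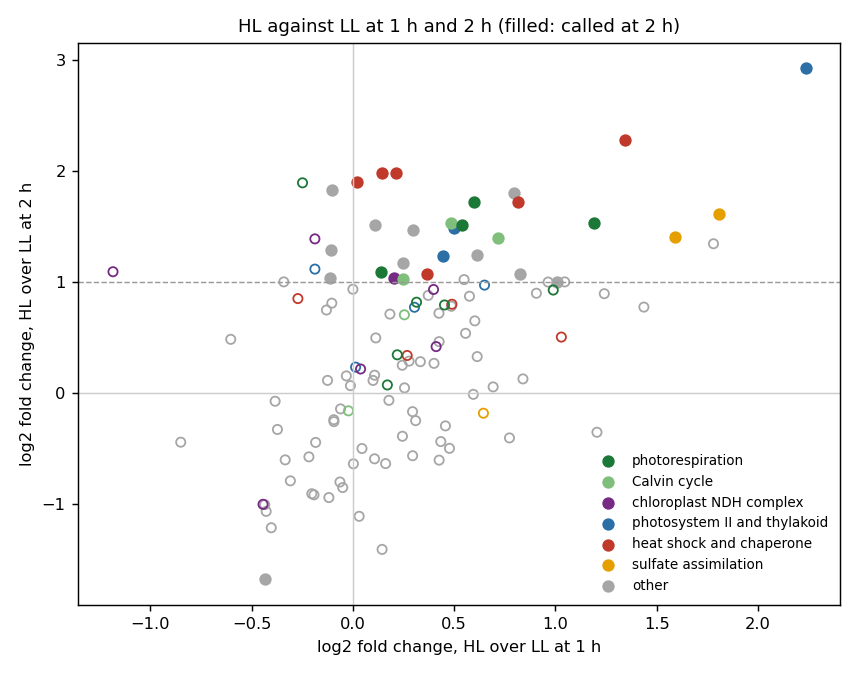
Log2 fold change of HL over LL at 1 h (x axis) and at 2 h (y axis) for the 123 genes, coloured by the member groups used in the text, filled where the gene was called at 2 h. The dashed line marks a 2-fold difference at 2 h, the highest point is ELIP1 (2.24 at 1 h and 2.93 at 2 h), and MBF1C, HSP101 and AT2G20560, close to 0 on the x axis, lay at 1.90 to 1.99 on the y axis.

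Photorespiration gave 10 members: the glycolate oxidases GOX1 and GOX2, the glutamate:glyoxylate aminotransferase GGT1, the P, H and T proteins of glycine decarboxylase (GLDP1, GLDP2, GDCH, AT1G32470 and AT1G11860), the serine hydroxymethyltransferase SHM1 and the hydroxypyruvate reductase HPR. This group and those of the next paragraphs were put together after the members were known. All 10 had their highest of the 8 group means at HL 4 h, which follows in part from the choice. In LL their means at 1 h were all below those at 0 h, and 9 of the 10 were still below at 2 h. At 2 h the log2 differences between HL and LL of the 10 ran from 0.07 to 1.89 with a median of 1.01. Called higher in HL were 4 of the 10, against 1.68% of all genes tested: GLDP1, AT1G32470, SHM1 and GGT1.

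GLDP1, which encodes the P protein that releases carbon dioxide from glycine, had 5415, 3219.6 and 4414 CPM in the HL 4 h libraries and 1369, 1719 and 1306 CPM in the HL 0 h libraries, against 997, 1033 and 1148 CPM at LL 4 h and 1133, 1079.6 and 1291 CPM at LL 0 h. At 2 h it had 1598, 1998 and 2010.3 CPM in HL, against 502, 925 and 516 CPM in LL. At 1 h it had 1179, 1261 and 1149 CPM in HL, against 455, 559.7 and 559 CPM in LL. The HL libraries lay above the LL libraries at each of the 4 times, 0 h included, and the differences of 1.53 (SE 0.19, adjusted p = 5.76e-06) at 2 h and 1.19 (SE 0.19, adjusted p = 0.000877) at 1 h were both called and held without each library. GLDP2, the other P protein gene, had 1028, 1157 and 1278 CPM at HL 2 h, against 584, 636 and 602 CPM at LL 2 h, a difference of 0.93 (SE 0.12, adjusted p = 6.98e-06) that stayed under the 2-fold limit. GLDP1 and GLDP2 are close copies, as are GOX1 and GOX2, and how the counting shared reads between such copies is not given in the sources used here, so the split within each pair is uncertain.

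SHM1, which turns glycine into serine together with the decarboxylase, had 41.3, 25.6 and 35.4 CPM at HL 2 h, against 8.16, 13.4 and 14.0 CPM at LL 2 h (log2 1.51, SE 0.29, adjusted p = 0.00142). AT1G32470, an H protein of the decarboxylase, had 16.4, 19.6 and 15.9 CPM at HL 2 h, against 3.40, 8.90 and 3.77 CPM at LL 2 h (log2 1.72, SE 0.33, adjusted p = 0.00142). In both genes the groups did not overlap, and both calls held without each library. GGT1 had 34.4, 24.97 and 29.2 CPM at HL 2 h, against 18.4, 14.1 and 9.70 CPM at LL 2 h (log2 1.09, SE 0.25, adjusted p = 0.00876), and its call was lost without replicate 1 of HL 2 h (0.97) or replicate 3 of LL 2 h (0.88). GOX1, which oxidises glycolate in the peroxisome, had 3232, 3134 and 2513 CPM at HL 4 h and 950.4, 634 and 739 CPM at HL 0 h, against 1436, 1154 and 1426 CPM at LL 4 h and 1013, 1062 and 936 CPM at LL 0 h. At 2 h its difference between HL and LL was 0.82 (SE 0.14, adjusted p = 0.000445), under the 2-fold limit. HPR, with 366, 154 and 427 CPM at HL 4 h and 104, 27.0 and 84.8 CPM at HL 0 h, started low in the HL set, against 170.0, 218 and 183 CPM at LL 0 h, and at 2 h its libraries overlapped between HL and LL (log2 0.07, adjusted p = 0.94). GDCH, the second H protein, had the largest difference of the 10 at 2 h on few counts, with 14.8, 7.73 and 2.05 CPM in HL, against 0, 4.45 and 2.16 CPM in LL (log2 1.89, adjusted p = 0.117). The T protein gene AT1G11860 differed by 0.79 (SE 0.15, adjusted p = 0.00142), under the 2-fold limit, and GOX2 by 0.34 (adjusted p = 0.497). All 10 members still met the rule without HL 0 h replicate 2.

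The wider pathway list, assembled after the members were seen, holds 23 photorespiration genes, of which 18 were counted at both light levels. In HL 13 of the 18 were at least 2-fold higher at 4 h than at 0 h, and in LL none was. Members make up 10 of the 18 and meet both limits by the rule, so these counts follow in part from the choice. Of all 6460 genes over the floor, 657 met the HL limit. At 2 h, 6 of the 18 were called higher in HL than in LL, against 1.68% of all genes tested. The 2 of the 6 that are not members were CAT2, the catalase that removes the hydrogen peroxide of glycolate oxidation, and LrgB, the plastid glycolate and glycerate transporter. CAT2 stayed outside the 123 because its LL 4 h mean was below LL 0 h by more than the limit allows (-1.30), and LrgB missed both limits (0.85 in HL and -0.74 in LL).

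**Figure D4:**
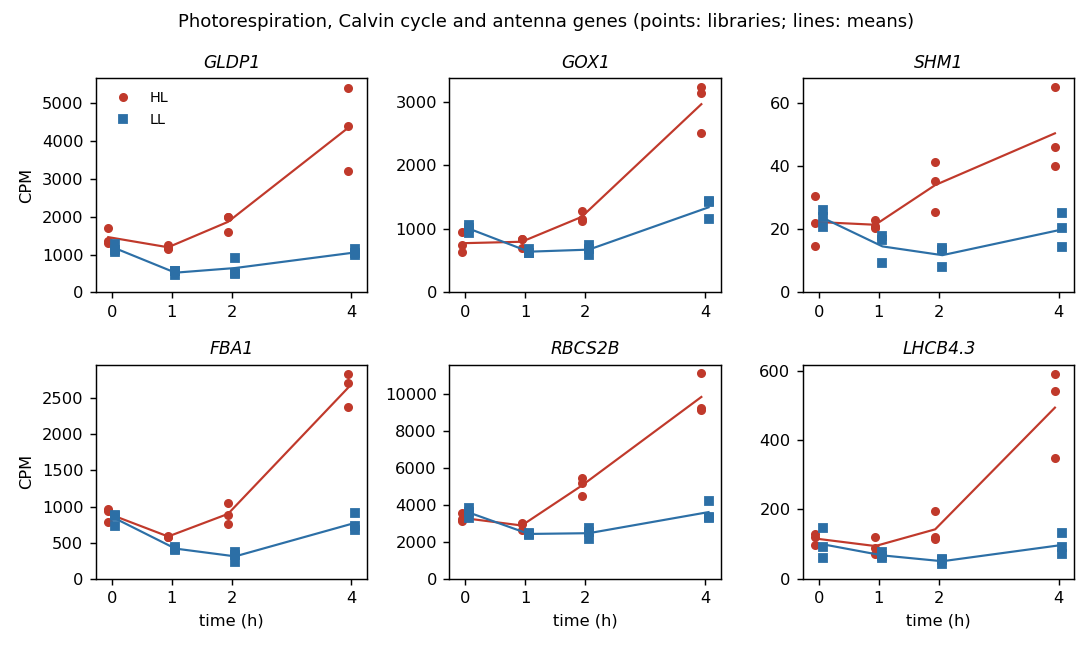
CPM against time (h) for 6 members, 3 of photorespiration (GLDP1, GOX1, SHM1), 2 of the Calvin cycle (FBA1, RBCS2B) and LHCB4.3, with HL as circles and LL as squares, 1 point per library and lines through the means of 3. The HL means were highest at 4 h in each panel, and the LL means were lower at 1 h and 2 h than at 0 h and 4 h.

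The promoters of 2 photorespiration members and of RBCS2B are shown because they hold a G-box (CACGTG), a motif bound by bZIP and bHLH factors of light signalling. The sequences are the bases directly upstream of the RefSeq gene start in TAIR10.1, 5′ to 3′ along the gene, with the G-box and, in RBCS2B, the I-box GATAAG or its reverse complement CTTATC in capitals. They come from chr4:15931423-15931522, minus strand (GLDP1), chr1:8272022-8272121, minus strand (GGT1) and chr5:15382072-15382231, minus strand (RBCS2B).
GLDP1: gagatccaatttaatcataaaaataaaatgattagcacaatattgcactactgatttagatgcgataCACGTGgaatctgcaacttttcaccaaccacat
GGT1: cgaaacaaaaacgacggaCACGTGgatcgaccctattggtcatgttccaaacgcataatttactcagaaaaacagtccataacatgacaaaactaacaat
RBCS2B: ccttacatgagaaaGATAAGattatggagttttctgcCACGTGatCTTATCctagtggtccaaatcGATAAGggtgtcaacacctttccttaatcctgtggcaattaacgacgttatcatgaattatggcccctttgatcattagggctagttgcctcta
The G-box began 33 bases upstream of the start in GLDP1, 82 in GGT1 and 123 in RBCS2B, where I-boxes stood on both of its sides at 146, 115 and 94 bases upstream.

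The Calvin cycle, which fixes carbon dioxide, gave 5 members: RBCS2B, a small subunit gene of Rubisco, GAPA, FBA1, SBPASE and EMB3119, a ribose 5-phosphate isomerase. FBA1, the plastid fructose-bisphosphate aldolase, had 2708, 2833 and 2378 CPM at HL 4 h and 943, 972 and 791 CPM at HL 0 h, against 729, 678 and 913 CPM at LL 4 h and 874, 737 and 889 CPM at LL 0 h. At 2 h it had 765, 879 and 1051 CPM in HL, against 233, 367 and 330.5 CPM in LL, with no overlap (log2 1.53, SE 0.15, adjusted p = 2.87e-07), and that call held without each library. RBCS2B had 4461, 5188 and 5483 CPM at HL 2 h, against 2150.3, 2735 and 2528 CPM at LL 2 h (log2 1.03, SE 0.12, adjusted p = 3.94e-06), and was just under the 2-fold limit without replicate 3 of HL 2 h (0.97) or replicate 1 of LL 2 h (0.96). Small subunit genes of nearly the same sequence lie beside it, so its reads could be split between copies. SBPASE, the sedoheptulose-bisphosphatase, was also called at 2 h (log2 1.39, SE 0.41, adjusted p = 0.0435) on few counts, with 9.54, 12.5 and 7.18 CPM in HL, against 2.04, 4.45 and 4.31 CPM in LL. That call was lost without replicate 1 of HL 2 h (1.40) or replicate 2 (1.19), without replicate 1 of LL 2 h (1.15) or replicate 3 (1.59), by DESeq2's Wald test (1.40) and with the replicate block (1.38). GAPA, a subunit of the plastid glyceraldehyde 3-phosphate dehydrogenase, had 671, 411 and 685 CPM at HL 4 h and 249, 86.2 and 230.1 CPM at HL 0 h, against 533, 342 and 435 CPM at LL 4 h, groups that overlapped at 4 h. EMB3119 had 349.7, 347 and 374 CPM at HL 2 h, against 201, 239 and 218 CPM at LL 2 h, without overlap but under the 2-fold limit (log2 0.70, SE 0.12, adjusted p = 0.000621). Of the 22 Calvin cycle genes of the wider list, all counted, 7 were at least 2-fold higher at HL 4 h than at HL 0 h and 1 at LL 4 h than at LL 0 h. Members make up 5 of the 22 and meet these limits by the rule, so the counts follow in part from the choice. At 2 h, 6 of the 22 were called higher in HL, against 1.68% of all genes tested.

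The chloroplast NDH complex gave 7 members, NdhN, NdhO, NdhS, PnsB2, PnsB4, PnsL2 and PnsL4, all nuclear genes for its subunits. PnsL2 had 163, 131 and 190.3 CPM at HL 4 h and 54.3, 12.4 and 39.8 CPM at HL 0 h, against 76.9 ± 15.8 CPM (mean ± SD, n = 3) at LL 4 h and 64.4, 80.7 and 62.2 CPM at LL 0 h, and at 2 h its difference between HL and LL was 0.93 (SE 0.27, adjusted p = 0.036), under the 2-fold limit. PnsB2 was the only one of the 7 called at 2 h, with 166, 186 and 189 CPM in HL, against 61.9, 108 and 93.8 CPM in LL (log2 1.04, SE 0.18, adjusted p = 0.000476), and its call was lost without replicate 1 of LL 2 h (0.86). NdhO was not called at 2 h, with 22.3, 8.92 and 11.3 CPM in HL, against 32.6, 5.19 and 45.3 CPM in LL (log2 -1.0, adjusted p = 0.285), where replicate 2 was the lowest library of both groups and the groups overlapped. PnsB4 and NdhN had larger differences at 2 h than PnsB2 but wider spreads (log2 1.39, adjusted p = 0.0724, and log2 1.09, adjusted p = 0.27), and those of NdhS and PnsL4 were 0.22 and 0.42. In the wider list of 17 subunits, 13 were counted, and 11 of them were at least 2-fold higher at HL 4 h than at HL 0 h and 2 at LL 4 h than at LL 0 h. Members make up 7 of the 13 and meet these limits by the rule, so the counts follow in part from the choice. At 2 h, 4 of the 13 were called higher in HL, against 1.68% of all genes tested.

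Around photosystem II and the thylakoid, 7 members were the assembly factors HCF173, HCF136 and PSB28, the Rieske-domain protein AT1G71500, the antenna protein LHCB4.3, the thylakoid soluble phosphoprotein AT3G47070 and ELIP1. LHCB4.3, an antenna protein of photosystem II, had 590.1, 543 and 348 CPM at HL 4 h and 120.4, 98.6 and 129 CPM at HL 0 h, against 90.7, 70.9 and 131 CPM at LL 4 h and 147, 90.9 and 61.4 CPM at LL 0 h. At 2 h it had 119.7, 114 and 195 CPM in HL, against 54.4, 41.5 and 56.1 CPM in LL (log2 1.49, SE 0.28, adjusted p = 0.0014). AT3G47070 had 2824, 2864 and 2847 CPM at HL 2 h, against 933, 1551 and 1146 CPM at LL 2 h (log2 1.23, SE 0.15, adjusted p = 3.31e-06). HL lay above LL in every library of both genes at 2 h, and both calls held without each library. HCF173, needed for translation of the D1 protein, differed by 0.97 (SE 0.19, adjusted p = 0.002) at 2 h, under the 2-fold limit, as did PSB28 by 0.77 (SE 0.16, adjusted p = 0.00445). HCF136, needed to assemble the photosystem II reaction centre, had 9.54, 8.92 and 14.9 CPM at HL 2 h, against 4.08, 5.19 and 5.93 CPM at LL 2 h (log2 1.12, adjusted p = 0.0563). Without HL 0 h replicate 2, AT1G71500 no longer met the rule (0.79 on the log2 scale between HL 4 h and HL 0 h).

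ELIP1, the early light-induced protein, had the largest difference between the light levels of all 123 genes at both 1 h and 2 h. It had 34.6, 28.1 and 19.1 CPM at HL 1 h, against 4.41, 5.34 and 7.85 CPM at LL 1 h (log2 2.24, SE 0.33, adjusted p = 0.000338). At 2 h it had 19.6, 21.4 and 33.3 CPM in HL, against 3.40, 2.97 and 3.23 CPM in LL (log2 2.93, SE 0.37, adjusted p = 6.98e-06). At 0 h it had 7.92, 5.11 and 5.19 CPM in the HL set, against 9.82, 7.34 and 2.39 CPM in the LL set, which overlapped, and both calls held without each library. Its upstream sequence, chr3:8085670-8085769, minus strand in TAIR10.1, is shown for the G-box that began 66 bases upstream of the start and the I-box on the other strand at 17 bases, both in capitals.
ELIP1: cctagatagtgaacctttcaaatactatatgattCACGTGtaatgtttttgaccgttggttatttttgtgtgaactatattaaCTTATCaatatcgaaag

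Most members of the 4 photosynthesis groups above, 29 genes in all, had a late course in HL. At 1 h, 21 of the 29 had covered less than 25% of their difference between HL 4 h and HL 0 h, and 15 of these were below HL 0 h, while at 2 h the median share was 44.0%. ELIP1 was not late, with 87.7% covered at 1 h, and NdhO (62.6%), HPR (60.5%), PnsL2 (59.7%), NdhS (56.4%) and GAPA (52.0%) had covered more than 50% by then. NdhO, HPR, PnsL2 and GAPA started at least 2-fold lower in the HL set, so their shares are measured from a low HL 0 h mean. In LL 26 of the 29 means were below 0 h at 1 h and 27 at 2 h. In 28 of the 29 the HL 4 h mean was the highest of the 8 groups, against 52 of the 81 members outside the 6 groups of the text. Of the 10 heat shock and chaperone members 0 had it highest. The rule used the 0 h and 4 h libraries, so these counts follow in part from the choice. Without HL 0 h replicate 2, 28 of the 29 still met the rule. By 2 h 11 of the 29 were called higher in HL than in LL, against 1.68% of all genes tested. At 1 h 2 of the 29 were called higher, against 0.377% of all genes tested.

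The heat shock and chaperone members, 10 genes, had an early course. In all 10 the HL 1 h mean was already above the HL 4 h mean that chose them, and in 9 it was the highest of the HL means. They were also above LL 0 h at 1 h and 2 h of LL, the median log2 difference being 2.29 at LL 1 h, against 0.16 at LL 4 h. At 4 h the LL means were near LL 0 h again, and the HL means were still at least 2-fold above HL 0 h, as the rule demands.

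MBF1C, a transcriptional coactivator of heat tolerance, had 327, 458 and 379 CPM at HL 1 h, 291, 288 and 243 CPM at HL 2 h and 142, 152 and 158 CPM at HL 4 h, with 26.6, 20.5 and 19.0 CPM at HL 0 h. In LL it had 486, 346 and 312 CPM at 1 h, 90.4, 57.1 and 72.2 CPM at 2 h and 37.4, 28.96 and 33.2 CPM at 4 h, with 30.7, 33.9 and 19.9 CPM at 0 h. At 1 h the light levels overlapped (log2 0.02, adjusted p = 0.996), and at 2 h and 4 h they did not. The difference at 2 h was 1.90 (SE 0.19, adjusted p = 2.87e-07).

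HSP101, the disaggregase of the cytosol, had 68.3, 52.3 and 61.0 CPM at HL 2 h, against 10.2, 17.8 and 17.8 CPM at LL 2 h (log2 1.98, SE 0.24, adjusted p = 4.59e-06), where at 1 h it had 61.5, 78.3 and 71.5 CPM in HL, against 87.2, 50.7 and 49.4 CPM in LL. AT2G20560, a DnaJ co-chaperone, had 94.8, 82.6 and 87.6 CPM at HL 2 h, against 26.5, 24.5 and 16.7 CPM at LL 2 h (log2 1.99, SE 0.21, adjusted p = 6.03e-07), where at 1 h it had 86.1, 118 and 101 CPM in HL, against 114, 85.4 and 61.2 CPM in LL. In both genes the light levels overlapped at 1 h and were apart at 2 h. HSP70, a cytosolic chaperone of a family with similar copies, had 1032, 818 and 876 CPM at HL 2 h, against 306, 274 and 249.6 CPM at LL 2 h (log2 1.72, SE 0.24, adjusted p = 3.22e-05). AT1G07400, a small heat shock protein, was called at 2 h (log2 2.28, SE 0.30, adjusted p = 1.19e-05) and also at 1 h (log2 1.34, SE 0.28, adjusted p = 0.0112), where the call at 1 h was lost without replicate 3 of HL 1 h (1.19), replicate 2 of LL 1 h (1.29) or replicate 3 of LL 1 h (1.06). The sixth call at 2 h was Hop3, a co-chaperone of HSP70 and HSP90 (log2 1.07, SE 0.24, adjusted p = 0.00643), lost without replicate 1 of HL 2 h (0.96) or replicate 3 of LL 2 h (0.86). The heat shock factor AT-HSFB2B (log2 0.85, adjusted p = 0.0881), the peptidyl-prolyl isomerase ROF1 (log2 0.80, adjusted p = 0.0129) and the plastid HSP70 cpHsc70-2 (log2 0.34, adjusted p = 0.533) were not called at 2 h. At 0 h HSP101 had 13.0, 8.77 and 9.23 CPM in the HL set, against 6.75, 8.47 and 8.77 CPM in the LL set. It stood on the edge of the rule and left it without replicate 2 of HL 0 h (0.92).

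**Figure D5:**
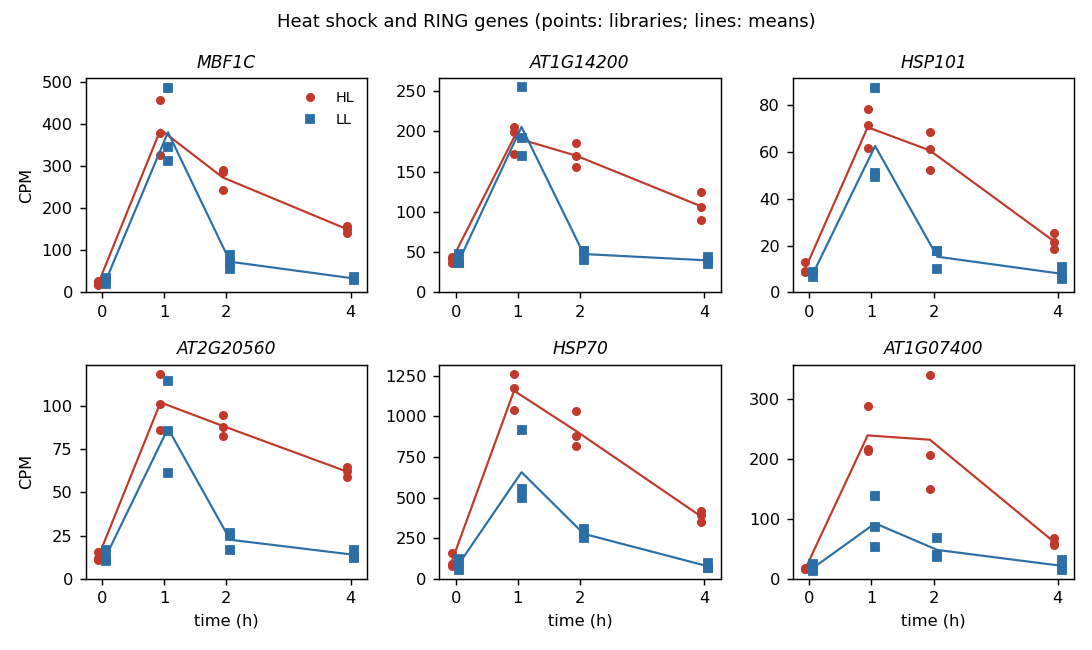
CPM against time (h) for 5 heat shock members and the RING-domain gene AT1G14200, with HL as circles and LL as squares, 1 point per library and lines through the means of 3. At 1 h both light levels were high, with overlapping libraries in the panels of MBF1C, AT1G14200, HSP101 and AT2G20560, and from 2 h on all HL libraries lay above all LL libraries.

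Within LL, 6 members were lower at 2 h than at 1 h by edgeR's test on the 12 LL libraries (4.88% of the members, against 0.622% of the 10930 genes tested), and none was higher (0.165% of all genes were). With no call upward, 5 members had an unadjusted p under 0.05 in that direction, and DESeq2 called none. The 6 were MBF1C (log2 -2.37, SE 0.20, adjusted p = 1.20e-06), AT1G14200 (log2 -2.10, SE 0.17, adjusted p = 1.20e-06), HSP101 (log2 -2.03, SE 0.27, adjusted p = 0.000273), AT2G20560 (log2 -1.96, SE 0.24, adjusted p = 0.00011), AT1G26800 (log2 -1.34, SE 0.15, adjusted p = 3.71e-05) and HSP70 (log2 -1.24, SE 0.24, adjusted p = 0.0093). AT1G14200 and AT1G26800 encode RING-domain proteins, a domain of ubiquitin ligases. The HSP70 call was lost without replicate 3 of LL 2 h (-1.17) or replicate 1 of LL 1 h (-0.91), and the other 5 held without each library.

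The change from 1 h to 2 h was compared between the light levels in the same fit, a contrast in which a steady offset between the 2 sets of libraries cancels. 7 of the 123 genes were called more positive in HL (5.69%, against 0.0966% or 10 of the 10349 genes tested) and none was called more negative (0% of all genes). With no call downward, 6 members had an unadjusted p under 0.05 in that direction, and DESeq2 called none. The 7 were AT1G14200 (log2 1.93, SE 0.22, adjusted p = 3.28e-05), MBF1C (log2 1.88, SE 0.25, adjusted p = 0.000278), HSP101 (log2 1.83, SE 0.32, adjusted p = 0.0103), AT2G20560 (log2 1.77, SE 0.28, adjusted p = 0.00308), the TRAF-like gene AT5G26280 (log2 1.17, SE 0.22, adjusted p = 0.0204), AT1G26800 (log2 1.15, SE 0.21, adjusted p = 0.0204) and FBA1 (log2 1.05, SE 0.21, adjusted p = 0.0344). The calls of AT1G14200, MBF1C and AT2G20560 held without each of the 12 libraries. That of HSP101 was lost without replicate 1 of LL 2 h (1.61), replicate 1 of HL 1 h (1.75) or replicate 1 of LL 1 h (1.48). That of AT5G26280 was lost without any 1 of 6 libraries (1.10 to 1.18), that of AT1G26800 without any 1 of 7 (1.09 to 1.15) and that of FBA1 without any 1 of 10 (0.87 to 1.09) or with the 1 h and 2 h libraries alone (1.02). AT1G14200 had 185, 155 and 169 CPM at HL 2 h and 172, 206 and 199 CPM at HL 1 h, which overlapped, against 40.8, 51.2 and 51.2 CPM at LL 2 h and 255, 192 and 169 CPM at LL 1 h, which did not.

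AT1G53540, a small heat shock protein gene among the 10, is shown with its upstream sequence because its 2 heat shock element cores, GAANNTTC and TTCNNGAA (N being any base), overlap at 53 and 48 bases before the start. It lies at chr1:19980199-19980298, plus strand in TAIR10.1, and the capitals mark the joined cores.
AT1G53540: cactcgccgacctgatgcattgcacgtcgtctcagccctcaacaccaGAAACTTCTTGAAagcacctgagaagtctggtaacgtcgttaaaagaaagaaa
Its HL and LL levels did not differ beyond their spread at 2 h (log2 0.50, adjusted p = 0.298). Of the 10 heat shock members, 6 hold at least 1 of the 2 cores in the window of 300 bases around the start, and neither MBF1C nor AT2G20560 does.

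Sulfate assimilation gave 3 members: LSU1 and LSU2, small proteins induced when sulfur is low, and APR1, which reduces activated sulfate. LSU2 had 144, 135 and 116 CPM at HL 1 h, against 50.0, 37.4 and 41.6 CPM at LL 1 h (log2 1.59, SE 0.27, adjusted p = 0.00147), and 105, 115 and 96.9 CPM at HL 2 h, against 33.3, 50.4 and 36.7 CPM at LL 2 h (log2 1.40, SE 0.27, adjusted p = 0.00162). LSU1 had 93.2, 102 and 106 CPM at HL 1 h, against 34.3, 16.0 and 33.0 CPM at LL 1 h (log2 1.81, SE 0.32, adjusted p = 0.00313), and 80.5, 76.1 and 66.1 CPM at HL 2 h, against 27.2, 23.7 and 22.1 CPM at LL 2 h (log2 1.61, SE 0.33, adjusted p = 0.00321). In both genes HL lay above LL in every library at 1 h and 2 h, and the 4 calls held without each library. APR1 had 72.1, 67.5 and 68.5 CPM at HL 1 h, against 41.1, 47.2 and 45.5 CPM at LL 1 h (log2 0.64, adjusted p = 0.0755), and at 2 h it was level with LL (log2 -0.18). Without HL 0 h replicate 2 LSU1 no longer met the rule (0.70). The list of 12 sulfate assimilation genes had 10 counted, of which 4 were called higher in HL than in LL at 1 h and 2 at 2 h. Of all genes tested, 0.377% were called higher at 1 h and 1.68% at 2 h.

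LSU1 also holds the heat shock core GAANNTTC 140 and 47 bases upstream of its start, and its upstream sequence is shown for these, in capitals, from chr3:18375941-18376090, minus strand in TAIR10.1.
LSU1: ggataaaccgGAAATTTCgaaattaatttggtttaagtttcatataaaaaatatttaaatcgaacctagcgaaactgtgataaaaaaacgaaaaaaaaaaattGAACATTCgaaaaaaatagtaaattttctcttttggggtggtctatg

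At 1 h, 7 of the 123 genes were called higher in HL than in LL (5.69%, against 0.377% of the 10349 genes) and none lower (against 0.029%). Called higher were also 3.47% of the 288 genes that were 2-fold higher at 4 h of both light levels and 0.604% of the genes over the floor. Downward, 1 member had an unadjusted p under 0.05, and DESeq2 called none. ELIP1, LSU1, LSU2 and GLDP1 held without each library. AT1G07400 is described above. AT3G57020, annotated as a calcium-dependent phosphotriesterase, differed by 1.24 (SE 0.26, adjusted p = 0.012) and lost its call without replicate 1 of HL 1 h (1.18) or replicate 2 of LL 1 h (1.09). AT3G52740 differed by 1.01 (SE 0.21, adjusted p = 0.0106) and lost its call without replicate 1 of HL 1 h (0.99), replicate 2 of HL 1 h (0.91) or replicate 2 of LL 1 h (0.95). Of the 7 genes called at 1 h, 6 were also called at 2 h, and AT3G57020 was the exception, since its difference stayed under the 2-fold limit (log2 0.89, SE 0.26, adjusted p = 0.0395).

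Within HL, 1 member was called between 1 h and 2 h, higher at 2 h (0.813%, against 0.170% of the 11166 genes tested), and none was lower (against 0.448%). Called higher were also 3.12% of the 288 genes that were 2-fold higher at 4 h of both light levels. Downward, 12 members had an unadjusted p under 0.05 and 26 upward, and DESeq2 called none in either direction. The 1 was AT1G73120, an F-box protein and the gene with the largest difference between HL 4 h and HL 0 h of the 123. It had 10.7, 23.4 and 5.77 CPM at HL 0 h, 16.4, 13.0 and 24.5 CPM at HL 1 h, 37.1, 55.3 and 95.3 CPM at HL 2 h and 157, 104 and 224 CPM at HL 4 h, where its LL libraries ran from 8.01 to 38.8 CPM over all 4 times. The change between 2 h and 1 h was 1.77 (SE 0.39, adjusted p = 0.0222), and the call was lost without replicate 2 of HL 2 h (1.85), replicate 3 of HL 2 h (1.32), replicate 1 of HL 1 h (1.72) or replicate 2 of HL 1 h (1.58), and by DESeq2 (1.78). All HL 2 h libraries lay above all HL 1 h libraries. Its difference between HL and LL at 2 h was 1.80 (SE 0.41, adjusted p = 0.00876), lost without replicate 3 of HL 2 h (1.35) or replicate 1 of LL 2 h (1.66).

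Outside these groups stood 81 members, of which 10 were called higher and 1 lower in HL than in LL at 2 h, against 1.68% and 1.27% of all genes tested. Their median difference at 2 h was 0.11, and 45 of the 81 still met the rule without HL 0 h replicate 2. AT5G26280 had 106, 114 and 127 CPM at HL 2 h, against 40.8, 37.1 and 46.4 CPM at LL 2 h (log2 1.47, SE 0.15, adjusted p = 6.03e-07). AT1G62510, of the lipid-transfer protein family, had 962, 948 and 1039 CPM at HL 2 h, against 432, 507 and 306 CPM at LL 2 h (log2 1.25, SE 0.21, adjusted p = 0.000395). In both the light levels did not overlap and the calls held without each library. ATSPS4F, a sucrose-phosphate synthase, had 78.0, 49.5 and 52.6 CPM at HL 4 h and 9.61, 7.31 and 12.7 CPM at HL 0 h, against 15.4, 8.79 and 26.8 CPM at LL 4 h and 16.6, 17.5 and 7.97 CPM at LL 0 h. It was called at 2 h (log2 1.29, SE 0.35, adjusted p = 0.0246), and the call was lost without replicate 3 of HL 2 h (0.98), replicate 1 of LL 2 h (1.44) or replicate 3 of LL 2 h (1.21). THM1, a plastid thioredoxin, was called at 2 h (log2 1.51, SE 0.36, adjusted p = 0.0113) and lost the call without replicate 1 of HL 2 h (1.27), replicate 1 of LL 2 h (1.49) or replicate 3 of LL 2 h (1.32). UGT76E11, a glycosyltransferase, was called at 2 h (log2 1.07, SE 0.27, adjusted p = 0.0166) and lost the call without replicate 1 of HL 2 h (0.86), replicate 1 of LL 2 h (0.96) or replicate 2 of LL 2 h (0.93), and by DESeq2's Wald test (1.06). AT1G26800 was called at 2 h (log2 1.04, SE 0.16, adjusted p = 1.00e-04) and lost the call without replicate 2 of LL 2 h (0.92). AT3G52740 was close to the 2-fold limit (log2 1.00, SE 0.22, adjusted p = 0.00651), and its call was lost without replicate 2 of HL 2 h (0.93) or replicate 2 of LL 2 h (0.83), and at 0.99 each by DESeq2, with median-of-ratios scaling, with filterByExpr and with the 1 h and 2 h libraries alone. AT1G14200 (log2 1.83, SE 0.16, adjusted p = 2.05e-07) held without each library. The plastid protease FTSH11 was called at 2 h (log2 1.17, SE 0.26, adjusted p = 0.00583) and lost the call without replicate 3 of HL 2 h (1.00).

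ARD4, an acireductone dioxygenase of methionine salvage, had 56.1, 33.2 and 56.1 CPM at HL 4 h and 19.2, 2.19 and 16.1 CPM at HL 0 h, against 45.6, 29.5 and 33.2 CPM at LL 4 h and 34.4, 41.2 and 27.1 CPM at LL 0 h. APT2, an adenine phosphoribosyltransferase, had 21.3, 14.5 and 26.04 CPM at HL 4 h and 8.48, 0 and 20.8 CPM at HL 0 h, against 22.6, 16.5 and 27.3 CPM at LL 4 h and 14.1, 25.97 and 17.5 CPM at LL 0 h. Both are among the 12 largest differences between HL 4 h and HL 0 h and among the 34 genes that started at least 2-fold lower in the HL set. Neither was called at 2 h (log2 -0.39, adjusted p = 0.645, and log2 -0.60, adjusted p = 0.491).

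Members not called at 2 h included the sucrose exporter SWEET11, whose difference was under the 2-fold limit (log2 0.81, SE 0.17, adjusted p = 0.00461). They also included the plastid copper/zinc superoxide dismutase CSD2 (log2 -0.07), the peroxiredoxin PRXQ (log2 0.87), and 2 enzymes of carotenoid synthesis, the lycopene cyclase LYC (log2 -0.50) and the beta-hydroxylase BETA-OHASE 1 (log2 0.25). LYC had 31.4, 12.2 and 46.9 CPM at HL 4 h and 15.3, 3.65 and 15.6 CPM at HL 0 h, against 31.9, 24.3 and 23.57 CPM at LL 4 h and 31.3, 30.5 and 23.9 CPM at LL 0 h, so that its level at HL 4 h overlapped both LL groups. Without HL 0 h replicate 2, LYC (0.73) and PRXQ (0.87) no longer met the rule.

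Of 16 gene lists, cell type markers included, 8 had at least 1 member among the 123. The list of heat shock factors and chaperones had 6 members of 20 counted, with 9 of the 20 called higher in HL than in LL at 2 h, against 174 of all 10349 genes. Of the 14 photoprotection and antenna-like genes counted, ELIP1 was the member and 4 were called higher at 2 h, ELIP2 (2.78), OHP2 (1.35) and the zeaxanthin epoxidase ABA1 (1.77) being the others. Of 21 isoprenoid genes 2 were called higher, the carotene hydroxylase CYP97A3 (2.78) and the tocopherol cyclase VTE1 (1.03), neither of them a member. Of 26 antioxidant genes 1 was called higher (CAT2, 2.21), of 23 plastid chaperones and proteases 2 (VAR2, 1.33, and CR88, 1.07), and of 22 sugar and starch genes 2 (APL1, 2.39, and CT-BMY, 1.18). Of these non-members, all but CR88 and CT-BMY had LL 4 h means below LL 0 h by more than 0.4 or HL 4 h means less than 2-fold above HL 0 h, and CR88 and CT-BMY had LL 4 h means above the LL limit (0.50 and 0.49). The flavonoid and anthocyanin list had no member among its 15 counted genes, though 8 of them were at least 2-fold higher at HL 4 h than at HL 0 h. Over all 15 the median difference between LL 4 h and LL 0 h was -0.39. Of the 8, TT4 (-0.45), CHIL (-0.61), F3H (-0.73) and FLS1 (-0.52) were below the lower LL limit. TT5 (0.53), MYB12 (0.79), UGT78D2 (0.73) and HY5 (1.68) were above the upper LL limit. The lists of endoplasmic reticulum chaperones, ribosome biogenesis, the clock, abscisic acid and cold response, jasmonate and 3 of the study's singlet oxygen markers had no member either. These 3 markers were lower at HL 4 h than at HL 0 h (median -2.02) and lower at LL 4 h than at LL 0 h (median -1.68).

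Promoter motifs were searched as a description in 300 bases (250 before and 50 after the gene start) for 120 members with a window. At least 1 heat shock core, GAANNTTC or TTCNNGAA, which read the same on both strands and may overlap each other, was found in 30 (25%) of the members, against 18.7% of the genes over the floor and 19.3% of all 27443 windows. The G-box CACGTG was found in 9.17%, 9.13% and 7.68% of the same sets, and the I-box GATAAG, on either strand, in 15.8%, 16.2% and 14.6%. Of the 10 heat shock members 6 held a heat shock core, and of the 10 photorespiration members 1 did. TGACG, the core of as-1 elements, was in 18.3% of members and 23.8% of the genes over the floor, and CCGAC, the core of drought and cold elements, was in 16.7% of members and 16.0% of those genes. The evening element AAAATATCT was in 0.833% of members, against 3.31% over the floor, and TTGAC, the core of the W-box bound by WRKY factors, was in 55.0%, against 50.4%.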

How the data were processed

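*Ch1* seedlings were sampled at 4 times under HL and LL, with 3 libraries per group. The authors trimmed reads with cutadapt, mapped them with STAR 2.4.2a to Araport 11 and counted them with HTSeq, and the deposited tables, 1 per light level, hold the counts per gene. They also hold the authors' DESeq2-normalized signal, used here only for the rule that chose the members, and the authors' regularised log2 values, fold changes and p-values, none of which were used. Every gene reached at least 6 counts in a library, where the methods state at least 5 reads. Whether molecular identifiers were collapsed, and whether counting used strand, is not given in the sources used here, so overlapping and antisense genes cannot be told apart.

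Counts were tested with edgeR 4.0.16 (quasi-likelihood, TMM) in R 4.3.3, in 1 fit of 24 libraries over the 10349 shared genes for contrasts of HL with LL and in fits of 12 libraries within a light level. A call needed an adjusted p under 0.05 over all genes and a 2-fold change. Alternatives were DESeq2 1.42.0, median-of-ratios scaling, filterByExpr, a replicate block, no fold limit, the 1 h and 2 h libraries alone, and each library left out. Tested on simulated data with 200 changed genes, HL against LL at 2 h called 43% of 2-fold and 93% of 4-fold changes, and the difference of changes 32% and 77%, with 6 unchanged genes called in each over 10349 genes. The changed genes were drawn only from those above a minimum mean count. Since a call needs an estimate of at least 2-fold, a true 2-fold change estimated just below it is missed at any precision. The comparison at 0 h and the counts of libraries that do not overlap were added after seeing the data.

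The members and gene lists were chosen with earlier results of these data known, and the lists of photorespiration, Calvin cycle and NDH genes and the member groups after the members were seen. The rule for named genes took members in a gene list, the 12 largest differences between HL 4 h and HL 0 h, the largest calls at 1 h and 2 h (8 each way for HL against LL at 2 h, 4 each way at 1 h and between times in HL), the 5 of highest level at HL 4 h and the 3 nearest each limit on either side, of which some are left out. Genes named beyond it were chosen after their values were seen. Promoter windows were cut from RefSeq's TAIR10.1 sequence at its gene starts. The tables hold no coordinates, and the sequence positions are RefSeq's.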

Additional observations from a re-analysis of the deposited data

Results flagged for a closer look

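For 7 of the 123 genes the change from 1 h to 2 h differed between HL and LL by the test of that difference itself (edgeR, all 24 libraries). The log2 values of the HL change less the LL change were 1.93 for AT1G14200, 1.88 for MBF1C, 1.83 for HSP101, 1.77 for AT2G20560, 1.17 for AT5G26280, 1.15 for AT1G26800 and 1.05 for FBA1. In the first 4 and in AT1G26800 the HL mean at 2 h was within 2-fold of that at 1 h, and the LL mean at 2 h was more than 2-fold lower than at 1 h. In FBA1 the HL libraries had 765, 879 and 1051 CPM at 2 h and 578, 581 and 598 CPM at 1 h, against 233, 367 and 330.5 CPM at 2 h and 402, 417 and 435 CPM at 1 h in the LL libraries. AT5G26280 had 106, 114 and 127 CPM at HL 2 h and 80.3, 78.9 and 89.6 CPM at HL 1 h, against 40.8, 37.1 and 46.4 CPM at LL 2 h and 66.6, 70.3 and 65.9 CPM at LL 1 h.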

How the results depend on the processing

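The number of members ran from 100 to 152 as each 0 h and 4 h library was left out, and was 102 on TMM-scaled CPM, 111 with a pseudocount of 5 and 87 with a floor of 40, sharing 84 to 117, 96, 96 and 87 genes with the 123. The HL against LL count at 2 h was 26 to 29 higher under DESeq2, median-of-ratios scaling, filterByExpr, the block and the 1 h and 2 h libraries alone, and 44 with no fold limit. Members called lower at 2 h numbered 0 by DESeq2, 2 with the replicate block and 4 with the 1 h and 2 h libraries alone. The replicate block gave 2 members higher between HL 2 h and HL 1 h, as did the 1 h and 2 h libraries alone, where DESeq2 gave 0 and no fold limit 7 higher and 1 lower. It changed the other counts by at most 1.

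With each library left out in turn, members called higher in HL numbered 23 to 32 at 2 h and 4 to 10 at 1 h, and lower 0 to 10 and 0 to 0. Between 2 h and 1 h they numbered 0 to 1 higher and 0 to 0 lower in HL, and 0 to 0 higher and 5 to 6 lower in LL. The change from 1 h to 2 h was called more positive in HL for 3 to 9 and more negative for 0 to 1. None of the 51 single calls turned its direction under any alternative. Deviations of same-numbered libraries of different groups correlated at -0.32 to 0.40, over 0.1 in 18 of 84 pairs, so the numbers were not treated as pairs. In the 34 members that started low in HL, replicate 2 was the lowest library in 29 at HL 0 h, 22 at HL 2 h, 27 at HL 4 h and 32 at LL 2 h. In the other groups it was the lowest in 3 at HL 1 h, 2 at LL 0 h, 14 at LL 1 h and 12 at LL 4 h. Replicate 3 was the lowest in 29 at HL 1 h, 26 at LL 0 h and 22 at LL 4 h. Of simulated 2-fold changes at 2 h, 43% were called among genes above a minimum mean count, and precision by depth was not tested. The cause of these moves was not tested.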
